A study of Caenorhabditis elegans with 2 samples.

Results

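The genes described here are 10 core autophagy genes of Caenorhabditis elegans, out of 19973 protein-coding genes on the nuclear chromosomes, and the measurement is where the nuclear hormone receptor NHR-80 was found on and around them. The 10 are lgg-1, lgg-2, unc-51, bec-1, atg-7, atg-9, atg-16.2, atg-18, epg-5 and sqst-1. They were chosen by name for their part in the pathway, with earlier results of these data known. ChIP-seq, the sequencing of chromatin fragments pulled down with a protein, was done on whole hermaphrodites at the young adult stage, 64 hours after synchronisation of starved L1 larvae hatched from bleached adults. All animals were of strain OP460, which carries the mutation unc-119(tm4063) on chromosome III and the transgene array wgIs460, from which NHR-80 is made with a GFP-FLAG tag at its C terminus. Per the sample description the antibody used was directed against GFP, while another label names nhr-80 as the antibody target. There was 1 group, with 2 biological replicates, and no other group was analysed here, so no test between conditions was possible. The tagged receptor comes from a transgene whose promoter the labels do not name, and whole animals were used, so the tissue in which a site was bound cannot be told from these data.

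Autophagy is the process by which a cell encloses part of its own contents in a membrane sac, the autophagosome, and delivers it to the lysosome for breakdown. A kinase starts the process, a lipid kinase complex and its effectors mark the growing membrane, a conjugation system attaches ubiquitin-like proteins of the Atg8 family to that membrane, receptors bring in cargo, and tethering factors drive fusion with the lysosome. In C. elegans the pathway is known for its part in clearing protein aggregates and paternal mitochondria and in several forms of long life. NHR-80 belongs to the HNF4-like nuclear hormone receptors and is known from earlier work for the control of fatty acid desaturase genes and for its role in the long life of animals without a germline.

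A thresholded peak is one in the list that the authors thresholded by irreproducible discovery rate (IDR), and its summit is the base at which the peak is highest. That list equals the 7038 strongest peaks of the pooled replicates, and 7016 of them were matched by a peak in both replicates. Every one of the 10 genes had at least 1 thresholded summit between 2000 bp upstream of its 5' end and 1000 bp past its 3' end. By the same rule, 32.3% of all protein-coding genes had one. Because the 10 genes were chosen with earlier results of these data known, their counts are a description beside the background and not a test. The 10 windows held 15 summits in all, and 7 of the 10 genes had a single one. The share of all protein-coding genes with a single one is not given here. In the promoter window, which reached 1000 bp upstream and 200 bp downstream from the 5' end, 7 of the 10 genes had a summit, against 18.6% of all protein-coding genes. Those without one were unc-51, atg-7 and sqst-1, whose summits lay further upstream. A longer window can hold more summits, and the windows of the 10 genes were the longer ones, with a median of 5556 bp and a mean of 7519 bp, against 5027 and 6226 bp for all genes. The part of window length in the counts was not tested. Counted per length, the windows of the 10 genes held 0.199 summits per kb and those of all protein-coding genes 0.078.

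The sequences at the strongest summits are shown first, because they are where the receptor was placed and because they differ in the short words they hold. For the 8 genes with the strongest summits, in order of signal, each line gives the 101 bases centred on the summit, from the WBcel235 genome and read 5′ to 3′ in the direction of the gene. Capitals mark CACGTG or CACATG on either strand, so that CATGTG is the second of these read on the other strand.
sqst-1 (chrIV:12032441-12032541, plus strand): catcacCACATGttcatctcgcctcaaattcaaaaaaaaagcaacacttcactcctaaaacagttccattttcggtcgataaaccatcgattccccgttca
lgg-2 (chrIV:10936171-10936271, minus strand): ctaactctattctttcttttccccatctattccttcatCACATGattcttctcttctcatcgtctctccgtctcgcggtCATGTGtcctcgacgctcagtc
atg-18 (chrV:8631502-8631602, minus strand): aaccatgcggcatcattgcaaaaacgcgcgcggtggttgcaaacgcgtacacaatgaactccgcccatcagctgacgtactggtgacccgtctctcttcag
lgg-1 (chrII:6348556-6348656, minus strand): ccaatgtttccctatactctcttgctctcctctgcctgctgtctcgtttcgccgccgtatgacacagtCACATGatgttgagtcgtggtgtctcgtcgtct
atg-7 (chrIV:11082967-11083067, minus strand): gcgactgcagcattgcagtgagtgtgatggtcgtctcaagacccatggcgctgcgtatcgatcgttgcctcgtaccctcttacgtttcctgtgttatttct
atg-16.2 (chrII:6453507-6453607, minus strand): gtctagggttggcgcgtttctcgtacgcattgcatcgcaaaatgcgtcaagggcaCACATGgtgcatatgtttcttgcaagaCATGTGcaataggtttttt
unc-51 (chrV:20005863-20005963, minus strand): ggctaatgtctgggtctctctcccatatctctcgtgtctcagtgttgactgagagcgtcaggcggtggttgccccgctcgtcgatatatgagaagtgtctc
atg-9 (chrV:349169-349269, plus strand): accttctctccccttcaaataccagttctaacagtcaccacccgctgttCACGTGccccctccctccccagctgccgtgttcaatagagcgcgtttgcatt

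**Figure D1:**
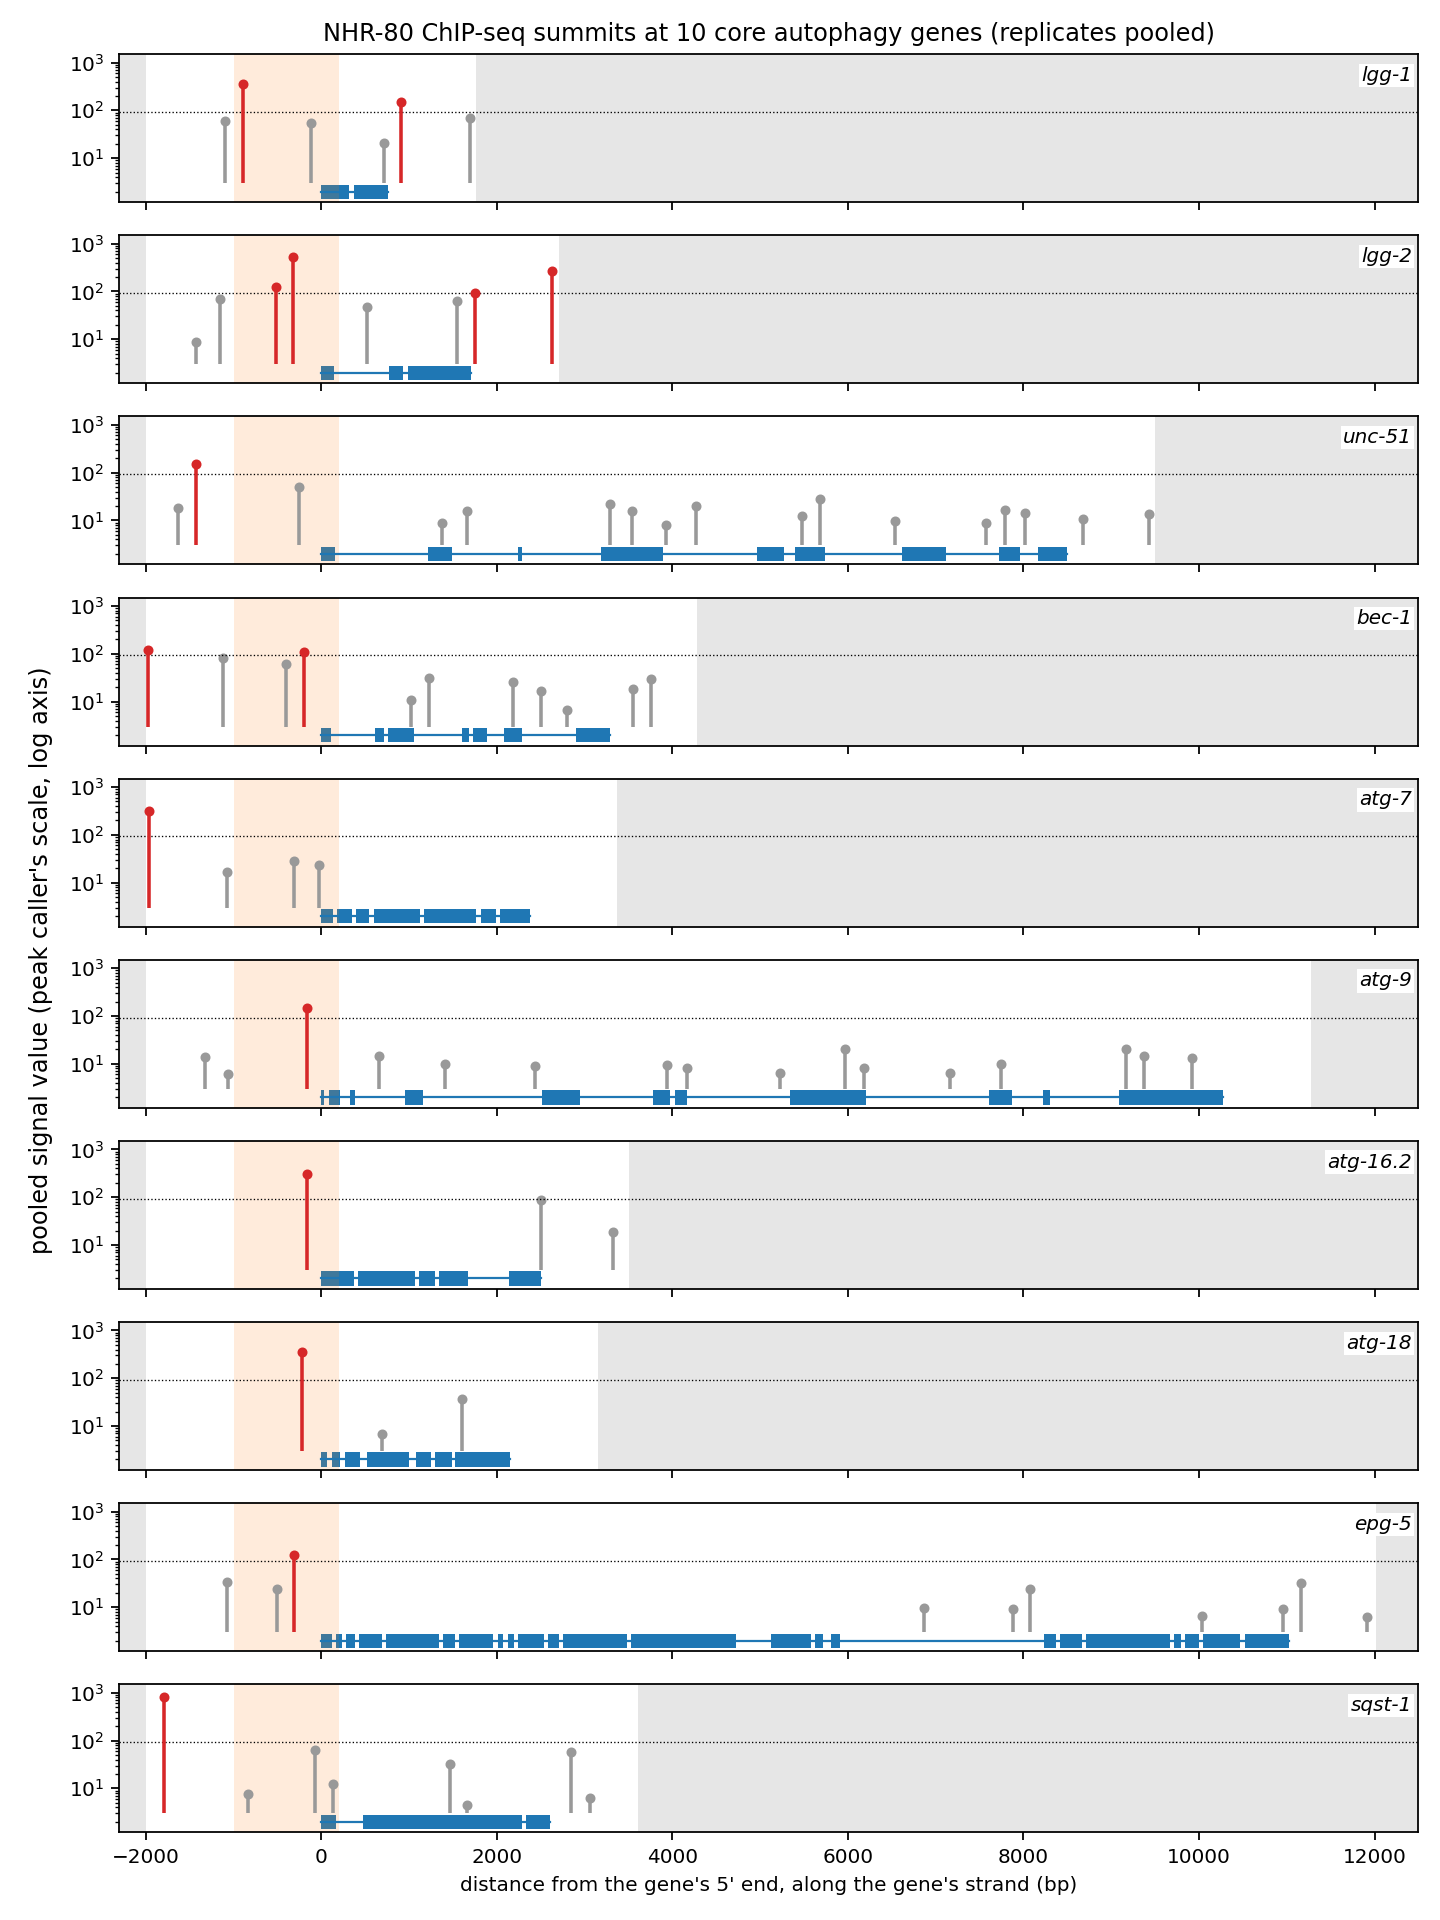
Summits of the pooled list along each of the 10 genes. The x axis is the distance from the 5' end of the gene along its strand in bp, the y axis the pooled signal value on a log scale; red dots are thresholded summits, grey dots are summits below the threshold (dotted line, 93.04), stems only guide the eye, blue boxes are exons, orange shading is the promoter window and grey shading lies outside the window. All 15 red dots lie upstream of the gene drawn or past its 3' end, and none lies on the body of that gene.

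At the start of the pathway stand unc-51, for a kinase of the ULK1 type, atg-9, for the membrane-spanning protein of the vesicles that seed the new membrane, and bec-1, the homologue of Beclin 1 in the lipid kinase complex. Their values were among the lowest of the 10 genes. In unc-51 (V: 19995986 to 20004485, minus strand) the single summit lay at -1428 bp from the 5' end with a pooled signal value of 150.2, rank 4693 of the 7038 thresholded peaks. Its signal was 82.04 in replicate 1 and 66.85 in replicate 2. Signal values were set by the authors' peak caller. Each list has a scale of its own, and at all 15 summits the pooled value was higher than that of either replicate.

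In atg-9 (V: 349385 to 359658, plus strand) the single summit lay at -166 bp with 150.0, from 76.34 in replicate 1 and 73.94 in replicate 2. Both unc-51 and atg-9 thus had near-equal values, and their order turned between the replicates. In bec-1 (IV: 5661141 to 5664425, minus strand) a summit at -201 bp had 110.0 and one at -1979 bp had 122.3. The promoter summit of bec-1 had 65.68 in replicate 1 and 45.32 in replicate 2, and the distal one had 70.96 and 53.43. Both lay within 200 bp of an annotated noncoding gene, the promoter summit near the snoRNA gene T19E7.29 and the distal one near the ncRNA locus T19E7.25. The bec-1 gene therefore had the weakest promoter summit of the 7 genes with one, when the strongest promoter summit of each gene is compared.

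The effector of the lipid mark is atg-18, of the WIPI family of lipid-binding proteins. In atg-18 (V: 8629174 to 8631327, minus strand) the single summit lay at -225 bp with a signal value of 363.5, rank 1276. It had 197.3 in replicate 1 and 166.4 in replicate 2, ranks 1279 and 1351 in those lists. The 2 replicate summits were 5 bp or less from the pooled one.

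The conjugation system is represented by atg-7, for the E1-like enzyme that activates the ubiquitin-like proteins, by atg-16.2, for a homologue of ATG16L1 that helps to place the last step on the membrane, and by lgg-1 and lgg-2, for the homologues of GABARAP and LC3 that end up on it. In atg-16.2 (II: 6450889 to 6453391, minus strand) the single summit lay at -166 bp with 304.9, and the replicates gave 168.9 and 130.2. In atg-7 (IV: 11078682 to 11081055, minus strand) the single summit lay at -1962 bp with 312.3, and the replicates gave 164.8 and 147.5.

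The atg-7 summit was not next to the gene. Between them lies let-70, for a ubiquitin-conjugating enzyme, on the same strand and with its 3' end 30 bp from the 5' end of atg-7. The summit was 764 bp upstream of the start of let-70 and 718 bp upstream of the start of klc-1, a kinesin light chain gene on the other strand, and it lay in the promoter windows of both. It was also within 200 bp of the snoRNA gene M7.15. In the promoter window of atg-7 itself the pooled list held summits at -313 and -28 bp, with signal values of 27.93 and 23.72, well below the lowest thresholded value of 93.04.

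For lgg-1 (II: 6346960 to 6347719, minus strand) the stronger summit lay at -887 bp with a signal value of 353.0, from 161.9 in replicate 1 and 188.7 in replicate 2. It is the least proximal promoter summit of the 10 genes. A summit 149 bp past the 3' end of lgg-1 had 148.0 and lay in the promoter window of C32D5.8, at -847 bp from its start. That summit differed most between the replicates, with 53.09 in replicate 1 (rank 6997) and 94.51 in replicate 2 (rank 3384). The log2 ratio of replicate 1 to replicate 2 was -0.83 there, outside the range of -0.36 to 0.82 between percentiles 5 and 95 of 7016 thresholded summits matched in both replicates. The other 14 summits of the 10 genes lay inside that range.

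With 4 summits, lgg-2 (IV: 10934196 to 10935903, minus strand) had the most of the 10 genes. The strongest lay at -318 bp with a signal value of 518.6, rank 529, and had 283.5 in replicate 1 and 236.9 in replicate 2. A second summit of the same peak interval, at -521 bp, had 122.4, from 89.38 and 72.52. The other 2 lay past the 3' end, where lgg-2 ends 6 bp from the 3' end of lsm-7, an LSM family gene of RNA metabolism on the other strand. The nearer, at 48 bp, fell in the 3' UTR of lsm-7 and had 93.78, just above the lowest thresholded value. It was also the only one of the 15 that did not overlap one of the 7038 strongest peaks in both replicates, with ranks of 6630 in replicate 1 and 7476 in replicate 2. The further, at 926 bp, had 266.2 and lay between the divergent genes lsm-7 and dnc-1, a dynactin subunit gene, at -232 and -67 bp from their starts.

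The cargo receptor gene sqst-1, the homologue of p62, had the strongest summit of all. In sqst-1 (IV: 12034282 to 12036891, plus strand) the single thresholded summit lay at -1791 bp with a signal value of 800.7, rank 111 of 7038. It had 459.0 in replicate 1 and 358.8 in replicate 2, which were ranks 83 of 30000 and 130 of 29712. The summit lay in the 2127 bp between mrpl-51 and sqst-1, both on the plus strand, 337 bp past the 3' end of mrpl-51, with no other protein-coding gene between it and sqst-1. No promoter window held it. Near the 5' end of sqst-1 the pooled list had a summit at -67 bp with 63.67, below the threshold.

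The last step is represented by epg-5, which encodes a tethering factor for the fusion of autophagosomes with lysosomes. In epg-5 (II: 6598344 to 6609365, minus strand) the single summit lay at -311 bp with a signal value of 124.7, from 58.62 in replicate 1 and 71.68 in replicate 2. This gene has the longest window of the 10, and its 9 further pooled summits were all below the threshold, at 33.76 or less.

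**Figure D2:**
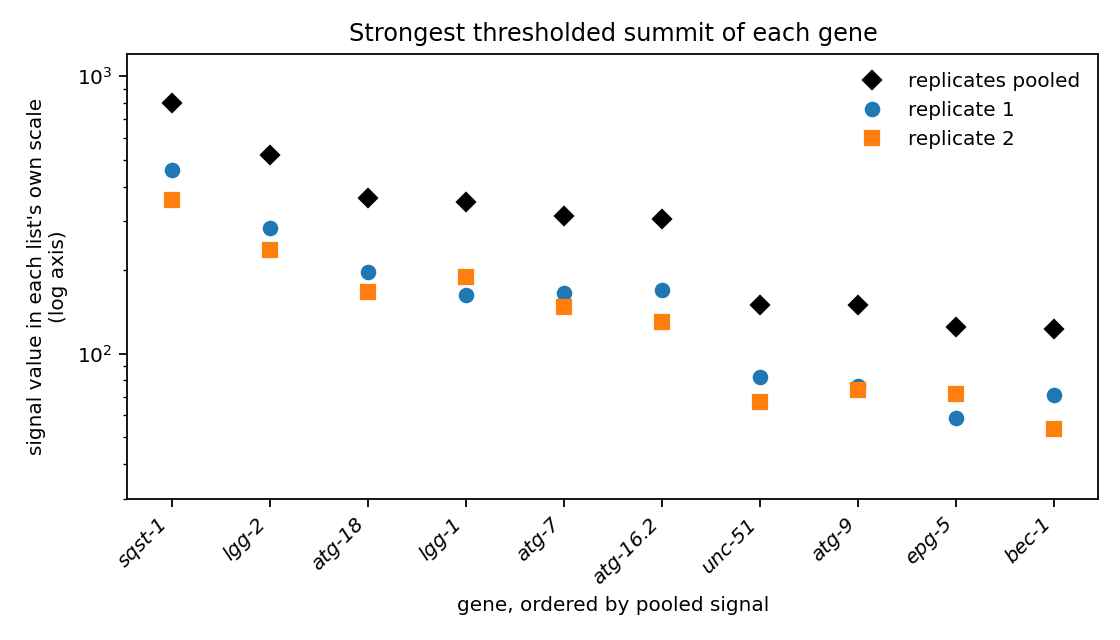
Signal value of the strongest thresholded summit of each of the 10 genes, on a log axis and on the own scale of each list. Diamonds are the pooled list, circles replicate 1 and squares replicate 2; sqst-1 and lgg-2 are first and second in all 3 lists, and unc-51, atg-9, epg-5 and bec-1 are the lowest 4 in each.

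By strongest summit the genes fell into an order that the replicates kept only in part. In both replicates sqst-1 came first and lgg-2 second. The next 4 were atg-18, lgg-1, atg-7 and atg-16.2, with pooled values from 304.9 to 363.5. Their order was not the same in the replicates: lgg-1 led the 4 in replicate 2 and was last of them in replicate 1, where atg-18 led. Last of the 4 in replicate 2 was atg-16.2. The lowest 4 were unc-51, atg-9, epg-5 and bec-1, with pooled values from 122.3 to 150.2, and they also changed places with each other. No gene of the lowest 4 reached the values of the middle 4 in either replicate, which started at 161.9 in replicate 1 and at 130.2 in replicate 2, against a highest value of 82.04 and 73.94 among the lowest 4. The strongest summit was above 194.6, the median signal of the thresholded list, in 6 genes and below it in 4. Of all protein-coding genes, 18.8% had a summit above it, a share that includes the genes without any summit. Among the 6443 genes with a thresholded summit in the gene window, 3756 had one above the median. In the promoter window lgg-1, lgg-2, atg-16.2 and atg-18 had a summit above the median, against 9.77% of all genes. Among the 3712 genes with a thresholded promoter summit, 1951 had one above it.

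**Figure D3:**
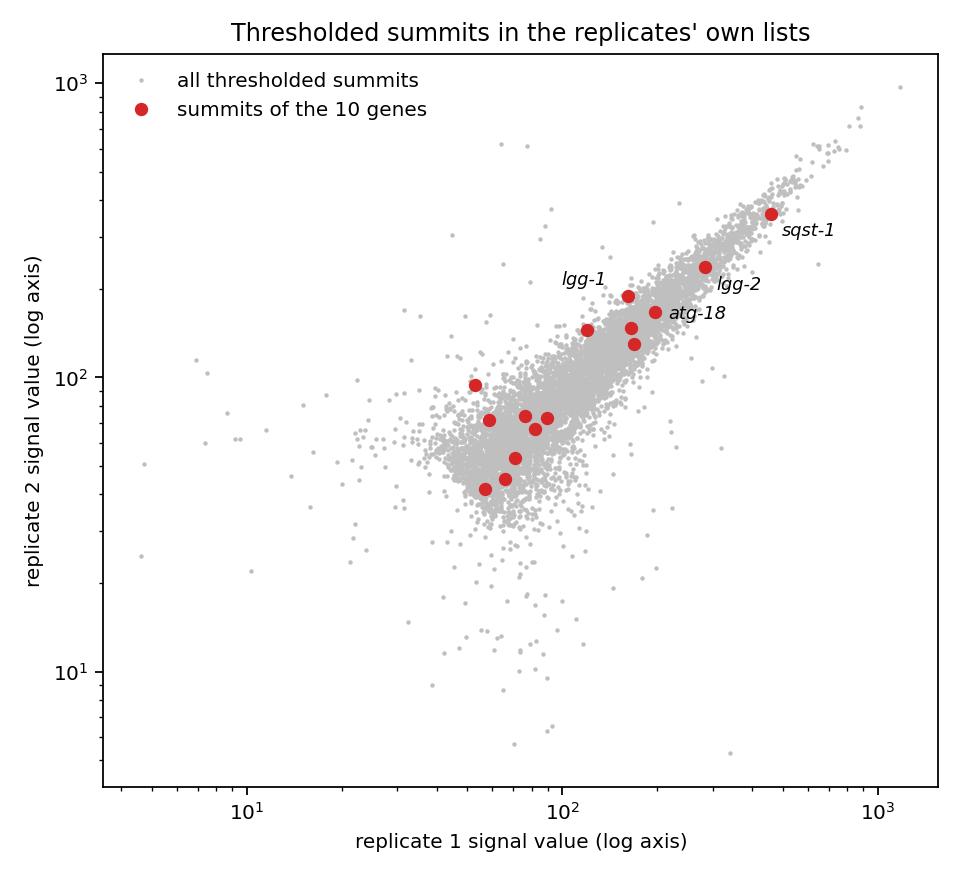
Signal values of thresholded summits in replicate 1 (x axis) and replicate 2 (y axis), both on log axes and on the own scale of each list, taken from the replicate peak that overlaps and has the nearest summit. Grey dots are all thresholded summits and red dots the 15 of the 10 genes; the red dots follow the grey cloud, and the one furthest to the upper left of it is the lgg-1 summit past the 3' end (53.09 and 94.51).

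For all 15 summits, the nearest summit among the overlapping peaks of each replicate was within 49 bp of the pooled one. The pooled list was derived from both replicates and the nearest summit was taken, so short distances are partly built in. The same distance over all thresholded summits is not given here. Of the 15, 14 overlapped one of the 7038 strongest peaks in both replicates. By this rule all 10 genes had a summit, against 29.2% of protein-coding genes, and 7 had one in the promoter window, against 16.5%. Most genes with any thresholded summit met it too: 5841 of 6443 in the gene window and 3301 of 3712 in the promoter window. The thresholded list was derived from the replicates, so this is a description and not an independent check. The strongest peaks of each replicate taken alone gave the same counts, 10 of 10 genes in the gene window (background 31.7% in replicate 1 and 32.1% in replicate 2) and 7 of 10 in the promoter window (18.1% and 18.4%).

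In all 10 genes the thresholded summits lay outside the gene body. Of the 15, 12 (80.0%) were upstream of the gene, 3 (20.0%) were past its 3' end and 0 were in its body. Gene bodies made up 60.1% of the length of the 10 windows and 51.8% of that of all protein-coding genes, and they held 26.8% of the summits in the windows of all genes. Upstream sequence held 55.1% of those, and sequence past the 3' end 18.1%. Of the window length, upstream sequence made up 32.1% over all protein-coding genes and 26.6% over the 10 genes. In the pooled list without the threshold, the same gene bodies held 44 summits, with a median signal value of 12.66. The strongest of these, in the 3' UTR of atg-16.2, had 88.41 and missed the threshold narrowly. Of the 15 thresholded summits, 14 lay in no annotated gene of any kind and the remaining one in lsm-7. The share of all thresholded summits in no annotated gene is not given here.

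The window edges decide some of these assignments. The summits of bec-1 at -1979 bp and of atg-7 at -1962 bp were just inside the limit of 2000 bp. Just outside it, atg-7 had another summit at 2161 bp upstream with a signal value of 150.4. Past the 3' ends, the lgg-2 summit at 926 bp was just inside the limit of 1000 bp, and one 1132 bp past the 3' end of unc-51, with 199.2, was just outside. For the promoter window, lgg-1 was the nearest case inside at 887 bp, and unc-51 the nearest outside at 1428 bp. In a shorter promoter window, 500 bp up and 100 bp down, 6 of the 10 genes had a summit, against 14.3% of all, and lgg-1 dropped out. In a longer one, 2000 bp up and 500 bp down, all 10 had one, against 24.2%. Counting the promoter windows of every transcript left the count at 7, against 20.3%. When the gene window was cut to the gene body with 1000 bp upstream, its count fell from 10 to 7 genes, against 23.4% of all, with unc-51, atg-7 and sqst-1 left without a summit.

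Other ways of tying a peak to a gene moved atg-7 and sqst-1. When a summit counted only for the gene with the nearest start, those 2 lost theirs to klc-1 and mrpl-51, and 8 of the 10 genes kept one, against 21.2% of all, or 7 in the promoter window, against 15.2%. When the whole peak interval counted in place of the summit, the counts were 10 (33.4%) and 7 (20.1%). Without the threshold all 10 genes had a pooled summit in the gene window, against 54.0% of all, and in the promoter window, against 38.1%. For unc-51 the promoter summit was at -252 bp with 49.41. The thresholded list that the authors made on the older ce10 build goes down to a signal of 52.32. With pooled peaks down to that value, the gene window count was 10 (38.6%) and the promoter count 8 (23.8%), the gene added being sqst-1.

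The GATA word TGATAA, of the kind that GATA factors of the intestine are known to bind, was searched within 50 bp of each summit on either strand. It was present at 2 of the 15 summits (13.3%), against 37.9% of the 7020 nuclear thresholded summits. In flanks 200 to 250 bp away it was present at 0 of the 15 and at 11.5% of the 7020. The summits of the 10 genes with it were the distal one of bec-1 and that of epg-5, both among the weaker ones. Of the 16 summits of the 19 further autophagy genes described below, 2 (12.5%) had it within 50 bp. None of the 8 sequences printed above holds it. CACGTG, the E-box that factors such as HLH-30, the homologue of TFEB, are known to bind, was present at the atg-9 summit alone, where it begins at position 50 of the 101 printed bases. Of all nuclear thresholded summits, 4.25% had it.

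GTAAACA, a forkhead word, was present at 1 of the 15 summits, the one past the 3' end of lgg-1, and at 2.34% of all. AAAGTCC, part of the site that mammalian HNF4 binds, was present at none of the 15 and at 0.869% of all. In all, 11 of the 15 summits had none of these 4 words within 50 bp. The same count over all nuclear thresholded summits is not given here, and most of those also lacked TGATAA, the most frequent of the 4. The word CACATG was picked after the sequences had been read, and so its count is a description with no weight as a comparison. It was present at 4 of the 15 summits, those of sqst-1, lgg-2, lgg-1 and atg-16.2, with a second copy in lgg-2 and in atg-16.2, and at 7.09% of all nuclear thresholded summits. A word that is present is not shown to be bound, and one that is absent says only that these letters are not in these 101 bases. The GC content of the 101 bases ran from 28.7% to 55.4% over the 15 summits, with a median of 46.5%, against a median of 40.6% over all nuclear thresholded summits.

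**Figure D4:**
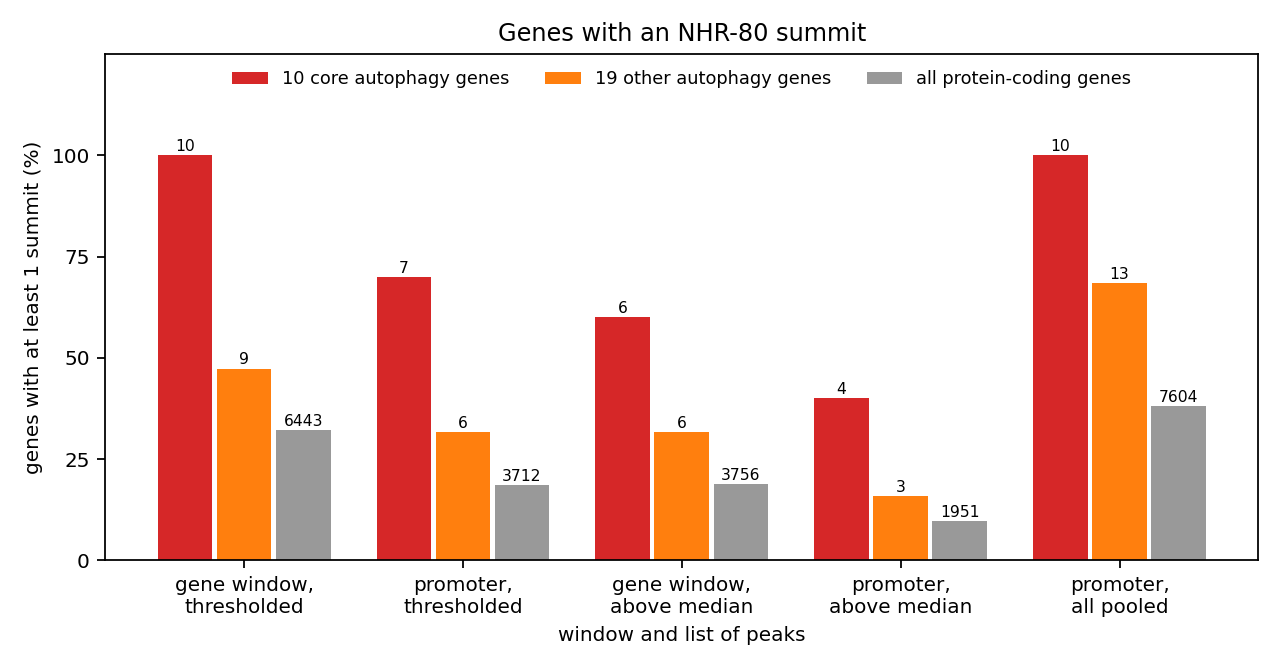
Percent of genes with at least 1 summit, for the 10 core autophagy genes (red), 19 other autophagy genes (orange) and all 19973 protein-coding genes (grey), by window and list of peaks; the number over each bar is the count of genes. In the promoter window of the thresholded list the counts are 7 of 10, 6 of 19 and 3712 of 19973.

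Further genes of the pathway were counted in the same way. Of 20 further autophagy genes, 19 were found in the annotation, and 9 of these had a thresholded summit in the gene window and 6 in the promoter window, beside backgrounds of 32.3% and 18.6%. The strongest promoter summits were at epg-7, for a scaffold protein, with a signal value of 473.6, and at allo-1, for a receptor in the removal of paternal mitochondria, with 304.6. They were followed by epg-4, the homologue of EI24, with 205.3, by atg-16.1, the sister gene of atg-16.2, with 165.4, and by atg-13, for a partner of UNC-51, with 127.5. The replicates gave 245.5 and 231.0 for epg-7, and 81.36 and 45.76 for atg-13. The sixth gene was lgg-3, the homologue of Atg12, whose summit at -536 bp lay in the promoter window of rgs-5 too.

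Both genes for homologues of ATG16L1 thus had a promoter summit, at -166 bp in atg-16.2 and at -115 bp in atg-16.1, with pooled values of 304.9 and 165.4. In replicate 1 their values were 168.9 and 92.99, and in replicate 2 they were 130.2 and 70.95, so atg-16.2 was higher in each. Named after their values were seen, atg-2, epg-6 and epg-9 had summits outside the promoter window. Among these, 5 summits lay in introns, the strongest in epg-9, the homologue of ATG101, with 623.9. Of the 5, 3 were within 1000 bp upstream of the start of another annotated transcript of the same gene, at -240 bp in atg-2, -229 bp in epg-6 and -857 bp in epg-9. With the promoter windows of every transcript, the count of the 19 genes went from 6 to 9, beside a background of 20.3%. Thresholded summits were not found in the windows of atg-3, atg-4.1, atg-4.2, atg-5, atg-10, vps-34, vps-15, epg-2, epg-3 and epg-8. Of these 10 genes, atg-4.2, atg-5 and atg-10 had no summit in the pooled list either. The rest had only summits below the threshold. Among them were atg-3, which encodes the E2-like enzyme next to ATG-7 in the reaction, and vps-34, for the lipid kinase that works with BEC-1. The read depth of the libraries is unknown, so a gene without a summit is one at which none was called, not one shown to be unbound.

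The 10 genes lie on chromosomes II, IV and V. On II, lgg-1, atg-16.2 and epg-5 follow each other with gaps of 103 and 145 kb, and on IV lgg-2 and atg-7 are 143 kb apart. These gaps are longer than any of the gene windows, so no pair could share a summit. Chromosome X holds 0 of the 10 genes, but atg-2, epg-7 and atg-16.1 of the further genes are on it.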

How the data were processed

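Per the labels, the samples were 2 biological replicates of whole OP460 young adults, with chromatin sheared by sonication. The deposited files used are 4 ce11 peak lists: 30000 peaks for replicate 1, 29712 for replicate 2, 30000 for both pooled, and 7038 thresholded by IDR. Per the deposited notes they were called against a control, and the authors' signal value of each peak is on the caller's own scale. No source used here gives the caller, the aligner, their versions or the IDR threshold. The thresholded list equals the 7038 strongest pooled peaks. Depth is unknown, so no value carries an interval from depth.

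Coordinates are 1-based on ce11, which is WBcel235, with genes of Ensembl release 115. A summit counted for every window that held it. Replicate values come from the overlapping replicate peak (at least 1 bp) with the nearest summit. A replicate's strongest peaks are its 7038 highest. Python 3.11.15, numpy 2.4.6 and pandas 2.3.3 were used. The window rule was tested on simulated data. On the thresholded list it was set beside bedtools 2.31.1, and both found 6443 genes with a summit. No test was made: 1 group was measured, and shares stand beside those of all protein-coding genes. Members and lists were chosen with earlier results of these data known. All 10 members are described whatever their peaks, as are the 5 further autophagy genes with the strongest promoter summit. The gene rub-1 was sought and not matched. Alternatives changed the threshold, windows, assignment, overlap, motif distance and replicates.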

Additional observations from a re-analysis of the deposited data

How the results depend on the processing

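With only the thresholded peaks above the median signal, 6 of the 10 genes kept a summit in the gene window (18.8% of all genes). In the promoter window 4 kept one (9.77% of all), as did 3 of the 19 further genes. The density was then 0.0931 summits per kb (0.0379 for all genes), and 0% of the summits had TGATAA (42.5% of all). With strong peaks in both replicates required as well, 6 genes kept a summit in the gene window. The share of all genes for that combined rule is not given here. With all pooled peaks, 13 of the 19 further genes had a promoter summit (38.1% of all genes), the density was 1.14 per kb (0.343 for all) and 5.81% of summits had TGATAA (18.6% of all). The density was 0.145 per kb in gene bodies with 1000 bp upstream (0.075 for all), where the gene count was 7, and 0.133 when each summit counted for the nearest start only (0.0465). Pooled peaks down to the lowest signal of the longer ce10 list (9962 peaks), an alternative chosen after seeing the data, gave 0.332 per kb (0.111 for all). TGATAA was at 6.67% of summits within 25 bp (22.3% of all) and at 20.0% within 100 bp (51.7%). Leaving out 1 replicate gave densities of 0.199 to 0.239 per kb (0.0778 and 0.0776 for all), the higher without replicate 2, and TGATAA at 11.1% to 20.0% of summits (37.0% and 36.4% of all), the higher without replicate 1. All other counts of genes stayed within 1.5 times the reported ones. No paired analysis was possible because there was 1 group and no test. Unknown depth limits what an absent peak can show.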
